A study of Mus musculus with 16 samples.

Results

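The genes described here are nuclear genes of oxidative phosphorylation that the arrays named. They were taken by symbol: Ndufa, Ndufb, Ndufc, Ndufs and Ndufv genes, Sdha to Sdhd, Uqcr genes, Cox4 to Cox8 genes and Atp5 genes. This gave 93 of the 19505 genes named, each read by 1 of 19572 probe sets. They comprised 36 subunits of complex I (6 core and 30 accessory), 8 complex I assembly factors, the pair Ndufa4 and Ndufa4l2, 4 subunits of complex II, 8 of complex III, 18 of complex IV and 17 of ATP synthase. Subunits with other symbols, such as Cyc1 of complex III, are not among the 93. Subunits encoded by mitochondrial DNA are not analysed here.

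RNA was measured on Clariom S mouse arrays in cells sorted from dissociated olfactory mucosa of S100a5-tauGFP mice, the strain used for all 4 groups, in which tauGFP reports S100a5, a gene of olfactory sensory neurons whose expression depends on their activity. The 24 mice, of both sexes and 7 to 12 weeks old, sat singly in clean air chambers for 40 h at an air flow of 3.1 L/min. From 26 h on they received 10 s pulses every 20 min, of the ketone odorant 2-octanone in 4 pools of 3 mice and of filtered air as vehicle in 4 other pools of 3. Each pool was sorted into GFP+ and GFP- cells, so that the groups were GFP+ cells after 2-octanone, GFP- cells after 2-octanone, GFP+ cells after vehicle and GFP- cells after vehicle, with 4 arrays each.

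Oxidative phosphorylation makes most of the ATP of a neuron. Complexes I and II pass electrons from NADH and succinate to ubiquinone, complex III passes them on to cytochrome c and complex IV to oxygen, and ATP synthase uses the proton gradient that complexes I, III and IV build. Olfactory sensory neurons spend ATP on odorant signalling in their cilia, on axonal transport and on restoring ion gradients, and complex I is put together from modules by assembly factors that are absent from the finished enzyme.

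All values are log2 signals, and no signal of one probe set is set against that of another. Differences are between group means, fitted for all 19572 probe sets together with limma, with standard errors (SE) and Benjamini-Hochberg adjusted p. A gene is called at an adjusted p under 0.05. The number of arrays, 4 per group, limits the precision. The background of a group is the 95th percentile of 23 background control probe sets, which averaged 7.90 in GFP+ and 7.91 in GFP- cells after 2-octanone, while after vehicle it averaged 7.96 in GFP+ and 7.78 in GFP- cells. Of the 93 genes, 82 lay above background in every group. In every group 9 were at background: Atp5k, Ndufa7, Ndufa4l2 and the tissue isoforms Cox4i2, Cox6a2, Cox6b2, Cox7b2, Cox8b and Cox8c. Cox7a1 and Uqcr11 were at background in some groups only.

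GFP+ and GFP- cells both read as rich in mature olfactory sensory neurons. Omp, the defining gene of the mature neuron, lay between 17.76 and 18.45 on all arrays. The fractions differed in markers of other cell types. Over 10 neutrophil genes, the mean signal ranged from 7.36 to 12.37 in GFP+ and from 14.37 to 15.90 in GFP- cells after 2-octanone, while after vehicle it ranged from 6.91 to 8.25 in GFP+ and from 14.49 to 15.72 in GFP- cells. Of the 10, 3 were at background in GFP+ cells after 2-octanone, 6 in GFP+ cells after vehicle and 0 in GFP- cells. All 10 were lower in GFP+ cells, as were 7 of 7 genes of dividing cells, 5 of 5 microvillar, 5 of 7 immature neuron, 4 of 7 macrophage, 2 of 3 precursor and 2 of 2 erythroid genes, while 4 of 8 mature neuron genes were higher. Of 6 sustentacular genes, 1 was higher and 2 were lower. The replicate 4 pools stood apart: in GFP+ cells S100a5 read 13.92 there after 2-octanone and 13.22 after vehicle, against 16.47 to 16.98 in the other 6 pools. In GFP- cells S100a5 read 13.55 there after 2-octanone and 13.11 after vehicle, against 15.45 to 15.81 in the other 6 pools. The fractions of the replicate 4 pools thus lay close together in the gene of the reporter. GFP+ replicates 3 and 4 after 2-octanone had the highest neutrophil means of the GFP+ arrays, 9.81 and 12.37. What part the cell makeup of the fractions has in the differences below was not tested.

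Setting GFP+ against GFP- cells asks how the respiratory chain of reporter-positive cells differs from that of the rest. The sort moved most of these genes little: 80 of 93 differences over both exposures were positive, with a median of 0.15. Over all genes, 13380 of 19572 differences were positive, with a median of 0.13. limma called 15 genes higher in GFP+ cells and 1 lower. Higher calls made up 16.1% of the 93 genes, against 16.7% of all genes, and lower calls 1.08%, against 14% of all genes. In either direction, 30.7% of all genes were called. Of the 82 genes above background in every group, 13 were called higher and 0 lower, with a median of 0.15. The higher calls were uneven over the classes. They took in 6 of the 8 complex I assembly factors (75%) and 9 of the 85 other genes (10.6%). They held 4 of 36 complex I subunits, 0 of 4 complex II subunits, 1 of 8 complex III subunits, 3 of 18 complex IV subunits and 1 of 17 ATP synthase subunits. Whether the classes differ was not tested. In bulk RNA of this kind, fewer cells of a type and less RNA per cell cannot be told apart.

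**Figure D1:**
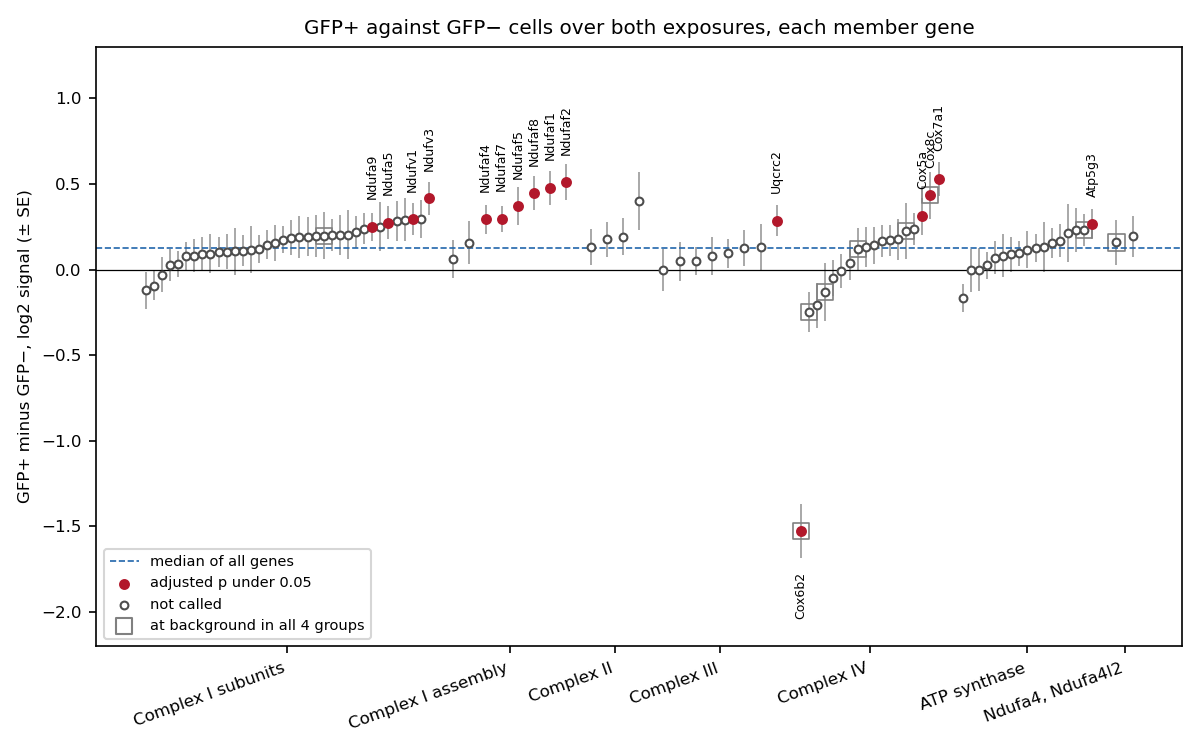
Difference of GFP+ minus GFP- cells over both exposures for each of the 93 genes, in log2 signal with the SE as bars, ordered by size within each class; red points are called and the dashed line is the median of all genes, 0.13. Complex I assembly factors hold 6 of the 15 higher calls, and Cox6b2 is the 1 gene called lower; squares mark the 9 genes at background in every group, whose differences do not measure a size of change.

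The count of higher calls rested on the arrays and on the scaling. It fell to 9 without octanone replicate 1 and to 8 without octanone replicate 4, without vehicle replicate 1 or with the replicate 4 pools of both exposures left out. The share of all genes called without these pools is not given here, so a fall particular to the 93 genes is not shown. With each array centred on its median, which moved the median of all genes to 0.41, 82 of the 93 genes and 66.9% of all genes were called higher. The median of the 93 genes was then 0.43. Directions below are those of the deposited scaling, and where centring turns one, this is said.

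Complex I assembly factors were the class with the largest median difference, 0.33 in GFP+ against GFP- cells. Within single pools their medians after 2-octanone were 0.29, 0.03, 0.14 and 0.42, and after vehicle they were 0.55, 0.25, 0.41 and 0.47. All 8 pools were on the positive side, as they were for all genes, whose medians lay between 0.07 and 0.16. In octanone replicate 2 the median of all genes, 0.11, lay above that of the assembly factors.

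The largest difference among them was that of Ndufaf2, a chaperone of late complex I assembly. Its signals were 8.83, 8.65, 8.37 and 8.85 in GFP+ and 8.44, 8.28, 8.26 and 8.44 in GFP- cells after 2-octanone, while after vehicle they were 9.18, 8.66, 8.64 and 8.77 in GFP+ and 8.05, 8.24, 7.88 and 8.28 in GFP- cells. The fractions did not overlap after vehicle, and after 2-octanone 1 GFP+ array lay among the GFP- arrays. It was higher in GFP+ cells in every pool, with a difference of 0.51 (SE 0.11, limma adjusted p = 0.00147).

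Ndufaf1 helps to build the membrane arm of complex I. It read 10.49, 10.55, 10.60 and 10.55 in GFP+ and 10.24, 10.07, 10.25 and 9.60 in GFP- cells after 2-octanone, while after vehicle it read 10.49, 10.29, 10.41 and 10.34 in GFP+ and 9.69, 10.04, 10.05 and 9.97 in GFP- cells. No GFP+ array fell into the range of the GFP- arrays in either exposure, and the difference was 0.48 (SE 0.10, limma adjusted p = 0.00157). It was the 1 gene of the 93 that limma called higher after 2-octanone alone, by 0.51 (SE 0.14, limma adjusted p = 0.0206), a call that was lost without octanone replicate 2 or 4.

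Ndufaf8, a partner of Ndufaf5, read 8.70, 8.36, 8.26 and 8.26 in GFP+ and 8.20, 8.28, 8.04 and 7.84 in GFP- cells after 2-octanone, while after vehicle it read 8.55, 8.28, 8.43 and 8.32 in GFP+ and 7.98, 7.91, 7.73 and 7.62 in GFP- cells. The fractions were apart after vehicle and overlapped slightly after 2-octanone, and both GFP- groups lay close to background. The difference was 0.45 (SE 0.10, limma adjusted p = 0.00241).

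Ndufaf7, an arginine methyltransferase of complex I assembly, was also higher in all 8 pools. It read 11.16, 11.34, 11.36 and 11.47 in GFP+ and 11.07, 11.26, 11.19 and 11.22 in GFP- cells after 2-octanone, while after vehicle it read 11.51, 11.29, 11.53 and 11.41 in GFP+ and 10.97, 10.97, 11.06 and 10.95 in GFP- cells. The fractions were well apart after vehicle and overlapped after 2-octanone, and the difference over both was 0.30 (SE 0.08, limma adjusted p = 0.00687).

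Ndufaf5, which hydroxylates a core subunit, and Ndufaf4, which acts on the peripheral arm, were higher in 7 of 8 pools each. They differed by 0.37 (SE 0.11, limma adjusted p = 0.0182) and by 0.29 (SE 0.09, limma adjusted p = 0.0156). Ndufaf5 was not called without vehicle replicate 1, with a limma adjusted p of 0.0716, and Ndufaf4 was not called without octanone replicate 4 or without vehicle replicate 4. Neither was called without both replicate 4 pools, where Ndufaf4 had a limma adjusted p of 0.122. Ndufaf3, the partner of Ndufaf4, differed by 0.06 and Ndufaf6 by 0.16, and neither was called. Ndufaf1, Ndufaf2, Ndufaf7 and Ndufaf8 were called in all 15 settings tried. Of these settings, centring each array on its median called 82 of the 93 genes higher, so it could hardly lose a higher call. The threshold of 0.1, which cannot lose a call, is not counted among the 15.

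**Figure D2:**
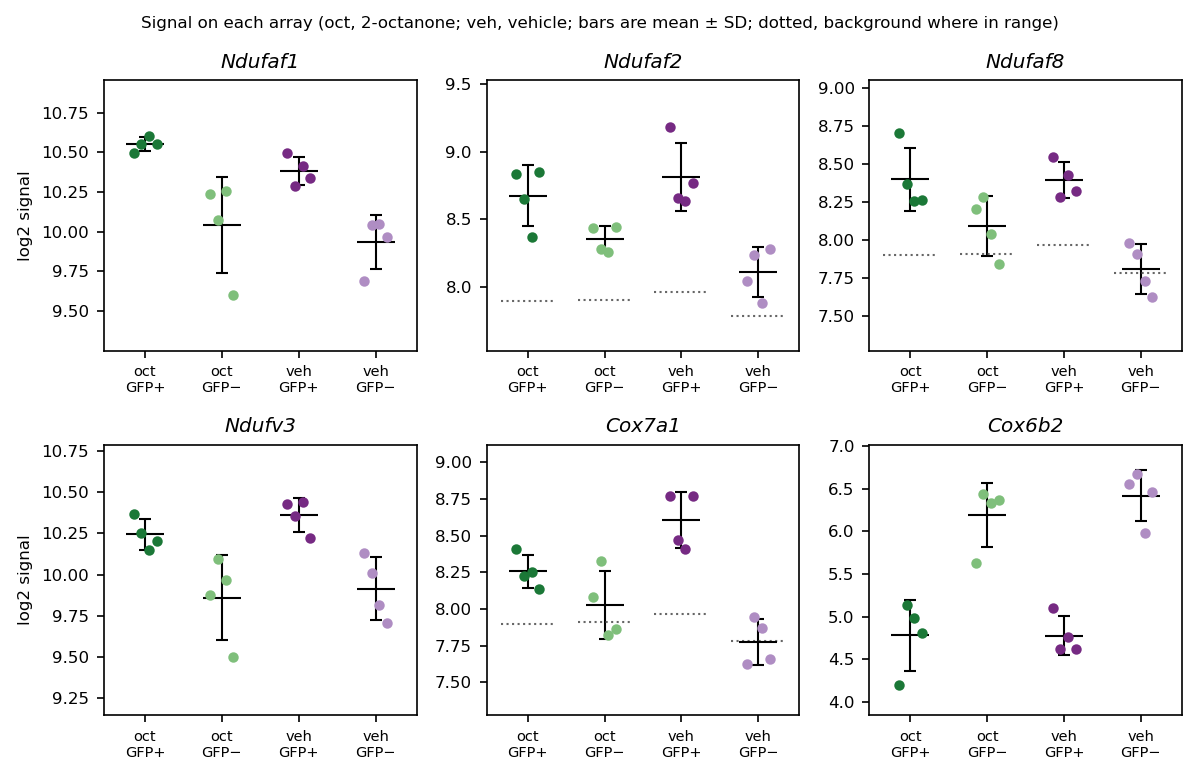
log2 signal of 6 genes on each of the 16 arrays by group, with mean and SD as bars (n = 4 arrays) and the background of each group dotted where it lies in range. In Ndufaf1, Ndufaf2, Ndufaf8, Ndufv3 and Cox7a1 the GFP+ points lie mostly above the GFP- points of the same exposure, and in Cox6b2 all GFP+ points lie below them.

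Promoters of respiratory chain genes are known for sites of NRF1, of ETS family factors and of YY1, and these letters were searched in RefSeq promoters (GRCm38.p6, 250 bases before to 50 after the start), which 77 of the 93 genes had. The motifs were CGCATGCG for NRF1, CCGGAAG for ETS, AAGATGGC for YY1 and CCAAT for the CCAAT box, on either strand and with overlaps allowed. At least 1 of the NRF1, ETS and YY1 motifs stood in 33 of the 77 promoters (42.9%), against 17.0% of the 15691 measured genes with a promoter. NRF1 was found in 10 (13.0%, against 2.62%), ETS in 18 (23.4%, against 12.2%), YY1 in 10 (13.0%, against 3.32%) and CCAAT in 34 (44.2%, against 38.8%). Of the 14 genes called in the sort that had a promoter, 5 held 1 of the first 3 motifs (35.7%), and of 7 assembly factors 4 did (57.1%). A match of letters describes the sequence and shows no binding. The 120 bases before the start are shown for the 4 assembly factors that were called higher in GFP+ cells in all 15 settings and for Cox6b2, the gene called lower, with motifs in capitals, so that the promoters of genes called in opposite directions can be read side by side.
Ndufaf1, chr2:119662835-119662954, minus strand: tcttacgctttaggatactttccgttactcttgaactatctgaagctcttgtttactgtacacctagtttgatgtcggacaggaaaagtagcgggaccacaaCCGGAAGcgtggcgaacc
Ndufaf2, chr13:108158626-108158745, minus strand: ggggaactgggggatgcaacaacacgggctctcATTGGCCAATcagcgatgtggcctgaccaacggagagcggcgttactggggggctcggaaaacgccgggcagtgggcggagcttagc
Ndufaf7, chr17:78937015-78937134, plus strand: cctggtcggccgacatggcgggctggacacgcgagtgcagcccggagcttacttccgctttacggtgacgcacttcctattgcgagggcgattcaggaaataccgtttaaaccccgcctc
Ndufaf8, chr11:120098814-120098933, plus strand: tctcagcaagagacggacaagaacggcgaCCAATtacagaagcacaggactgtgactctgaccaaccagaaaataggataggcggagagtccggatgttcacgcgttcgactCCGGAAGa
Cox6b2, chr7:4753095-4753214, minus strand: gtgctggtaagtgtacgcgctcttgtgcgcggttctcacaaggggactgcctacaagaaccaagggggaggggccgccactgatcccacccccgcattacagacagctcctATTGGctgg
Ndufaf1 and Ndufaf8 each held an ETS motif close to the start, at 18 to 12 and at 8 to 2 bases before it. Ndufaf2 held a pair of CCAAT boxes in opposite orientation, at 87 to 83 and 82 to 78 bases, and Ndufaf8 a CCAAT box at 91 to 87 bases. Ndufaf7 held none of the 4 motifs, here or in the whole window. In the whole window Ndufaf1 also held a CCAAT box and Ndufaf8 a YY1 motif, neither of them within the 120 bases shown. In these 120 bases Cox6b2 held a CCAAT box at 9 to 5 bases before the start and none of the other letters searched.

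Among the 36 complex I subunits the median difference of GFP+ against GFP- cells was 0.18, and 33 differences were positive. Ndufv3, an accessory subunit of the module that oxidises NADH, had the largest one. It read 10.37, 10.25, 10.15 and 10.20 in GFP+ and 9.88, 10.09, 9.97 and 9.50 in GFP- cells after 2-octanone, while after vehicle it read 10.43, 10.35, 10.44 and 10.22 in GFP+ and 10.13, 10.01, 9.82 and 9.70 in GFP- cells. Every GFP+ array lay above every GFP- array, and the difference was 0.42 (SE 0.10, limma adjusted p = 0.00397), called in all 15 settings.

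Ndufv1, the core subunit that binds FMN and takes electrons from NADH, read 14.82, 14.65, 14.50 and 14.64 in GFP+ and 14.50, 14.62, 14.27 and 14.14 in GFP- cells after 2-octanone. After vehicle it read 14.78, 14.66, 14.44 and 14.61 in GFP+ and 14.25, 14.48, 14.14 and 14.34 in GFP- cells. The ranges of the fractions overlapped in both exposures, although it was higher in GFP+ cells in all 8 pools, by 0.29 (SE 0.09, limma adjusted p = 0.0251). Without both replicate 4 pools, or without octanone replicate 1, octanone replicate 4 or vehicle replicate 1, it was not called, and the highest limma adjusted p over the settings was 0.0856. It was the 1 core subunit called of 6. Ndufa5, an accessory subunit of the peripheral arm, differed by 0.27 and Ndufa9, which lies near the ubiquinone site, by 0.25. Both were called over all arrays (limma adjusted p = 0.0418 for Ndufa5 and 0.0299 for Ndufa9) but in only 6 and 7 of 15 settings. Both were lost with quantile normalisation, without both replicate 4 pools, and without octanone replicate 1 or 4 or vehicle replicate 1 or 2, Ndufa5 also without octanone replicate 3 or vehicle replicate 3, and Ndufa9 also without octanone replicate 2 or vehicle replicate 4. The highest limma adjusted p was 0.130 for Ndufa5 and 0.128 for Ndufa9. Ndufa5 was also lost with the pool as a block, with a limma adjusted p of 0.0501, while Ndufb10 was then called higher, by 0.30 (limma adjusted p = 0.0399).

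The 4 subunits of complex II, which is also succinate dehydrogenase of the tricarboxylic acid cycle, all had positive differences and none was called. Sdhc, which anchors the enzyme in the membrane, had the largest, 0.40 (SE 0.17, limma adjusted p = 0.0813). It read 12.05, 11.95, 12.13 and 11.59 in GFP+ and 11.86, 11.67, 11.94 and 10.88 in GFP- cells after 2-octanone, while after vehicle it read 12.17, 12.07, 12.17 and 11.78 in GFP+ and 11.81, 11.90, 11.74 and 10.93 in GFP- cells. Replicate 4 was the lowest array of every group, in GFP- cells by the widest margin. Sdhc was higher in GFP+ cells in every pool. When the 2 fractions of each pool were paired by a block it was called (limma adjusted p = 0.0111). Sdha, the flavoprotein, differed by 0.18, the iron-sulfur subunit Sdhb by 0.19 and Sdhd by 0.13.

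Complex III had the smallest median difference, 0.09 over 8 genes. Uqcrc2, a core subunit of its matrix side, was the 1 gene called. It read 12.39, 12.45, 12.34 and 12.65 in GFP+ and 12.43, 12.60, 12.09 and 12.13 in GFP- cells after 2-octanone, while after vehicle it read 12.40, 12.53, 12.52 and 12.51 in GFP+ and 12.07, 12.08, 12.09 and 12.01 in GFP- cells. The fractions overlapped after 2-octanone and were clearly apart after vehicle, and over both exposures the difference was 0.29 (SE 0.09, limma adjusted p = 0.0220). It was not called without both replicate 4 pools, without octanone replicate 4 or without vehicle replicate 2, 3 or 4, with a highest limma adjusted p of 0.124. Uqcrc1, the other core subunit, differed by 0.13 and the Rieske protein gene Uqcrfs1 by 0.08.

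In complex IV 3 of the 4 calls were tissue isoforms whose signals were at or near background. Cox6b2, the isoform of Cox6b1 that is known from testis, was the 1 gene lower in GFP+ cells. It read 4.20, 5.14, 4.99 and 4.81 in GFP+ and 5.64, 6.44, 6.34 and 6.37 in GFP- cells after 2-octanone, while after vehicle it read 5.11, 4.63, 4.76 and 4.63 in GFP+ and 6.56, 6.67, 5.99 and 6.46 in GFP- cells. All GFP+ arrays lay below all GFP- arrays. All lay under the 95th percentile of the background probe sets, so the call (limma adjusted p = 1.05e-06 over both exposures) is one between signals at background, and no size of change is given. It was called in all 14 settings in which it was tested.

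Cox7a1, the isoform of heart and skeletal muscle, was called higher in GFP+ cells. It read 8.41, 8.22, 8.25 and 8.14 in GFP+ and 8.08, 8.33, 7.82 and 7.87 in GFP- cells after 2-octanone, while after vehicle it read 8.77, 8.47, 8.41 and 8.77 in GFP+ and 7.63, 7.94, 7.87 and 7.66 in GFP- cells. The fractions overlapped after 2-octanone and were far apart after vehicle, where the mean of the GFP- arrays, 7.77, was at background. With each GFP- array taken at no less than its background, it was at least 1.73-fold higher in GFP+ cells after vehicle. The measured difference was 0.23 after 2-octanone and, over both exposures, 0.53 (SE 0.10, limma adjusted p = 0.000585), called in all 15 settings; the size over both includes the group at background.

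Cox8c, another isoform known from testis, read 6.73, 6.60, 6.95 and 7.00 in GFP+ and 6.28, 6.59, 6.63 and 7.13 in GFP- cells after 2-octanone, while after vehicle it read 7.42, 6.85, 6.74 and 7.52 in GFP+ and 6.38, 6.42, 6.48 and 6.45 in GFP- cells. All were under background, and the fractions overlapped after 2-octanone only. It was called higher in GFP+ cells over both exposures (limma adjusted p = 0.0234), but not without octanone replicate 1 or 3 or vehicle replicate 1 or 4, with a highest limma adjusted p of 0.0778.

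The general isoforms of the same subunits were not called: Cox4i1 by 0.13, Cox6a1 by 0.17, Cox6b1 by 0.17, Cox7b by 0.18 and Cox8a by 0.14. The general isoform Cox7a2 differed by -0.01 and Cox7a2l, a factor of supercomplex assembly, by -0.21 (SE 0.13, limma adjusted p = 0.236). Centring each array on its median turned both to 0.27 and 0.07. The other tissue isoforms, Cox4i2, Cox6a2, Cox7b2 and Cox8b, were all at background and none was called. The count of calls among the 7 tissue isoforms was 2 higher and 1 lower, and among the 11 other complex IV genes Cox5a alone was called.

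Cox5a, a structural subunit on the matrix side, read 13.53, 13.72, 13.41 and 13.91 in GFP+ and 13.37, 13.72, 13.39 and 13.06 in GFP- cells after 2-octanone. After vehicle it read 13.97, 13.66, 13.55 and 13.79 in GFP+ and 13.42, 13.56, 13.27 and 13.28 in GFP- cells. It was higher in GFP+ cells in all 8 pools while the ranges overlapped in both exposures. The difference was 0.31 (SE 0.11, limma adjusted p = 0.0404), and it was lost with quantile normalisation and with the pool as a block (limma adjusted p = 0.0502). It was also lost without both replicate 4 pools, without octanone replicate 1 or 4 and without vehicle replicate 1, 3 or 4, with a highest limma adjusted p of 0.233. Ndufa4, once counted with complex I and now known as a subunit of complex IV, differed by 0.19 and was not called, nor was its paralogue Ndufa4l2, which was at background.

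In ATP synthase 1 of the 17 genes was called, Atp5g3, one of the 3 genes that encode the same mature subunit c of its ring. Atp5g3 read 14.56, 14.53, 14.46 and 14.86 in GFP+ and 14.40, 14.60, 14.31 and 14.21 in GFP- cells after 2-octanone, while after vehicle it read 14.77, 14.50, 14.58 and 14.56 in GFP+ and 14.33, 14.34, 14.33 and 14.18 in GFP- cells. The fractions were apart after vehicle and overlapped after 2-octanone. Its difference was 0.27 (SE 0.09, limma adjusted p = 0.0291). Atp5g1 differed by 0.00 and Atp5g2 by -0.17 (SE 0.09, limma adjusted p = 0.124), and centring turned these to 0.28 and 0.11. Whether the 3 genes differ from each other in this respect was not tested. Atp5g3 was not called with the pool as a block (limma adjusted p = 0.0503), nor without both replicate 4 pools, nor without octanone replicate 1, 3 or 4 or vehicle replicate 1, 3 or 4, with a highest limma adjusted p of 0.138. No gene of the catalytic F1 part was called among 5, and no other gene of the Fo part and stalk among 12. The median over all of ATP synthase was 0.12.

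Within the exposures, limma called 1 of the 93 genes higher and 1 lower in GFP+ cells after 2-octanone, against 5.29% higher and 9.8% lower among all genes (15.1% in either direction). After vehicle it called 11 higher and 1 lower, against 7.54% and 11% (18.6% in either direction). Ndufaf1 and Cox6b2 were the genes called in both. The median difference was 0.07 after 2-octanone, beside 0.12 for all genes, and 0.23 after vehicle, beside 0.12. After 2-octanone no gene was called higher without octanone replicate 2 or 4, nor with only the arrays compared in the fit. The count of higher calls after vehicle was 4 without vehicle replicate 1 or 4, 5 without vehicle replicate 2 and 6 without vehicle replicate 3. Here too the share of all genes called without the pool is not given. With the pool as a block Ndufaf1 was not called after vehicle (limma adjusted p = 0.0508).

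The medians of the 93 genes in single pools were 0.11, -0.18, 0.03 and 0.30 after 2-octanone, a mean of 0.07 ± 0.20 (SD, n = 4 pools), and 0.36, 0.07, 0.26 and 0.24 after vehicle, a mean of 0.23 ± 0.12 (SD, n = 4 pools). The pools of the 2 exposures overlapped. Octanone replicate 2 was the 1 pool with a negative median, which centring turned to 0.09, and without octanone replicate 4 the median of the differences after 2-octanone turned to -0.02. It was 0.15 without octanone replicate 2. In all 4 pools given 2-octanone 14 of the 93 genes were higher in GFP+ cells (15.1%, against 25.1% of all genes), and in all 4 vehicle pools 54 were (58.1%, against 26.6%). In every pool 12 genes (12.9%, against 13.5%) were higher: Atp5b, Cox5a, Ndufa9, Ndufaf1, Ndufaf2, Ndufaf7, Ndufaf8, Ndufb10, Ndufs1, Ndufv1, Ndufv3 and Sdhc. Cox6b2 was the 1 gene lower in all 8 (1.08%, against 12.2%).

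**Figure D3:**
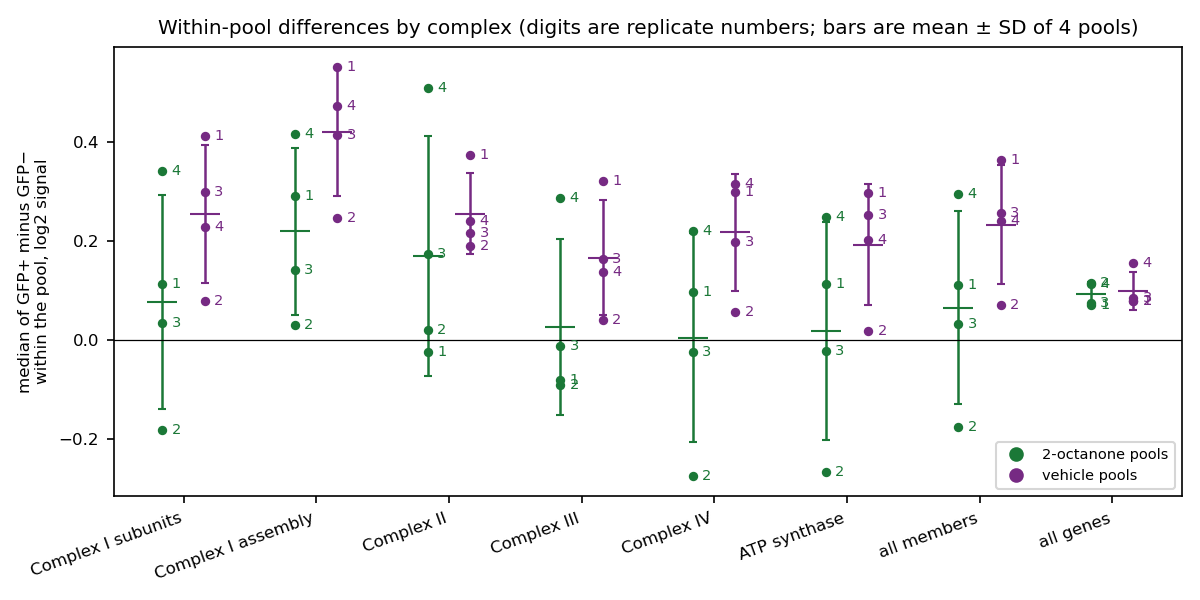
Median over each class of GFP+ minus GFP- cells within the pool, in log2 signal, for the 4 pools given 2-octanone and the 4 given vehicle, with replicate numbers beside the points and mean and SD as bars (n = 4 pools). Of the pools given 2-octanone, replicate 2 is the lowest over complex I subunits, complex I assembly factors, complex III, complex IV, ATP synthase and all 93 genes, while the medians of all genes lie between 0.07 and 0.16.

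The other genes of energy metabolism were counted over lists. Of all genes, 16.7% were called higher and 14% lower in GFP+ cells. Of 37 measured genes for other assembly factors and carriers of the chain, 11 were higher (29.7%) and 0 lower, with a median of 0.21. This list also held Cyc1, a subunit of complex III, which was not called. Lyrm7, which brings the Rieske protein to complex III, averaged 10.07 in GFP+ and 9.59 in GFP- cells after 2-octanone, while after vehicle it averaged 10.25 in GFP+ and 9.74 in GFP- cells. The difference over both exposures was 0.49 (SE 0.11, limma adjusted p = 0.00260). Sdhaf2, which attaches FAD to Sdha, averaged 11.57 in GFP+ and 11.06 in GFP- cells after 2-octanone, while after vehicle it averaged 11.39 in GFP+ and 11.13 in GFP- cells. The difference over both exposures was 0.38 (SE 0.09, limma adjusted p = 0.00355). The 2 called genes of 17 in the tricarboxylic acid cycle (11.8% higher) were Idh3a, a subunit of isocitrate dehydrogenase, higher by 0.33 (SE 0.08, limma adjusted p = 0.00476), and Fh1, the fumarase, higher by 0.27 (SE 0.09, limma adjusted p = 0.0317).

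Of 17 glycolysis genes, 3 were higher (17.6%) and 5 lower (29.4%). The glucose transporter gene Slc2a3 averaged 5.61 in GFP+ and 10.98 in GFP- cells after 2-octanone, while after vehicle it averaged 5.37 in GFP+ and 10.61 in GFP- cells. Both GFP+ means were under background, as were 3 of 4 GFP+ arrays after 2-octanone and 4 of 4 after vehicle. With each GFP+ array taken at no less than its background, Slc2a3 was at least 8.38-fold lower in GFP+ cells after 2-octanone and at least 6.27-fold lower after vehicle (limma adjusted p = 1.64e-07 over both exposures). Ldha, the lactate dehydrogenase subunit of glycolytic tissues, averaged 9.65 in GFP+ and 12.62 in GFP- cells after 2-octanone, while after vehicle it averaged 9.39 in GFP+ and 12.68 in GFP- cells. The difference over both exposures was -3.13 (SE 0.29, limma adjusted p = 3.23e-07). Both are expressed in white blood cells too, whose markers were lower in GFP+ cells by the values given above, and their part in these differences was not tested. Of 15 regulators of mitochondrial biogenesis, 2 were higher (13.3%) and 0 lower. Ppargc1a, a coactivator of respiratory genes, averaged 13.73 in GFP+ and 12.86 in GFP- cells after 2-octanone, while after vehicle it averaged 13.76 in GFP+ and 13.03 in GFP- cells. The difference over both exposures was 0.80 (SE 0.20, limma adjusted p = 0.00553) with the positive sign in all 8 pools. Tfam, which packs and transcribes mitochondrial DNA, was higher by 0.36 (SE 0.11, limma adjusted p = 0.0225). The median difference was 0.19 over the tricarboxylic acid cycle, 0.05 over glycolysis and 0.17 over the regulators, and no gene of any of these lists was called in the 2-octanone comparisons.

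The comparison of 2-octanone with vehicle asks whether odorant exposure changed these genes in either fraction. limma called none of the 93 genes in GFP+ cells, where 0% of all genes were called and the smallest adjusted p of the 93 was 1.00. An unadjusted p under 0.05 was reached by 2 of the 93, both lower after 2-octanone, against 1.39% of all genes lower and 3.16% in either direction. The median difference was -0.08, beside 0.01 for all genes, and 22 of 93 differences were positive, against 10047 of 19572 over all genes. The median was -0.01 without vehicle replicate 1, -0.04 without octanone replicate 3, and -0.14 without octanone replicate 4.

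Uqcr10, a small subunit of complex III, had the largest of these differences. In GFP+ cells its signal after 2-octanone was 10.64, 10.90, 10.73 and 11.51, and its signal after vehicle was 11.85, 11.37, 11.23 and 11.37. After 2-octanone replicates 1 to 3 lay below all arrays after vehicle, and replicate 4 lay among them. The difference was -0.51 (SE 0.19, 95% interval -0.91 to -0.11, unadjusted p = 0.0156 by limma). In GFP- cells the arrays after 2-octanone read 10.80, 11.18, 11.13 and 10.91 for the same gene and those after vehicle 11.23, 10.96, 10.99 and 11.35, so that the groups overlapped.

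Cox7a1 in GFP+ cells was lower by 0.35 after 2-octanone in the fit (difference -0.35, SE 0.14, unadjusted p = 0.0244 by limma), with every array after 2-octanone at or below the lowest after vehicle to 2 decimals. Ndufa3 differed by -0.30 (unadjusted p = 0.0533 by limma) and Ndufs6 by -0.21 (unadjusted p = 0.0696 by limma). None of these passed adjustment over all genes. Over the 82 genes above background in every group, the 95% intervals in GFP+ cells reached from -0.91 in Uqcr10 to 0.55 in Ndufaf6, so that larger differences than these lay outside every interval.

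In GFP- cells limma also called none of the 93, against 0.00511% of all genes, and 0 of the 93 had an unadjusted p under 0.05, against 2.44% of all genes. The median difference was 0.11, beside 0.00 for all genes, and 73 of 93 differences were positive, against 9743 of 19572 over all genes. The median of the 93 genes dropped to 0.01 without octanone replicate 2. Ndufv2, an iron-sulfur core subunit, came closest with 0.27 (unadjusted p = 0.0534 by limma). It was followed by Ndufaf8 with 0.28 (unadjusted p = 0.0609 by limma), Uqcrc2 with 0.24 (unadjusted p = 0.0681 by limma) and Ndufa5 with 0.27 (unadjusted p = 0.0690 by limma). Over the 82 genes above background the intervals reached from -0.60 in Ndufs7 to 0.58 in Ndufb4b.

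The change of the difference between GFP+ and GFP- cells with 2-octanone uses the same arrays as both comparisons above and repeats their values. It was not called for any of the 93 genes, with 0% of all genes called, and 2 genes, both negative, had an unadjusted p under 0.05, against 1.17% of all genes negative and 2.38% in either direction. The median was -0.17, beside 0.01 for all genes, and 8 of 93 values were positive, against 10018 of 19572 over all genes. The median of the 93 genes was -0.08 without octanone replicate 2 and -0.11 without vehicle replicate 1. Cox7a1 changed by -0.60 (SE 0.20, 95% interval -1.02 to -0.18, unadjusted p = 0.00818 by limma), a size that rests in part on the GFP- arrays after vehicle, whose mean was at background. Ndufs6, a zinc-binding subunit of the peripheral arm, changed by -0.40 (unadjusted p = 0.0190 by limma). Its signals were 12.87, 12.89, 12.84 and 12.97 in GFP+ and 12.87, 13.24, 13.12 and 13.01 in GFP- cells after 2-octanone, while after vehicle they were 13.21, 13.02, 13.08 and 13.10 in GFP+ and 12.91, 12.91, 12.73 and 12.93 in GFP- cells. The GFP+ mean lay below the GFP- mean after 2-octanone, a difference of -0.17 that centring turned to 0.09, and all GFP+ arrays lay above all GFP- arrays after vehicle. Ndufaf7 changed by -0.30 (unadjusted p = 0.0646 by limma).

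**Figure D4:**
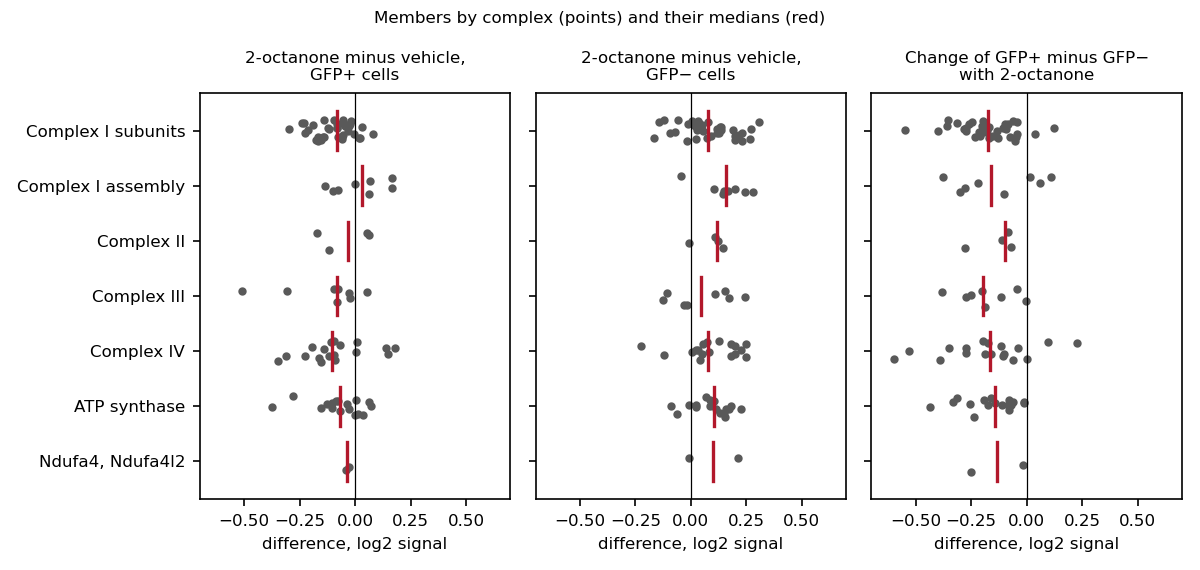
Differences of the 93 genes by class in log2 signal, with class medians in red: 2-octanone minus vehicle in GFP+ cells, the same in GFP- cells, and the change of GFP+ minus GFP- with 2-octanone. The medians over the 93 genes are -0.08, 0.11 and -0.17, and no point is called.

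Differences between the classes were not tested. In GFP+ cells the class medians of 2-octanone minus vehicle ran from -0.10 in complex IV to 0.03 in the assembly factors, and in GFP- cells from 0.04 in complex III to 0.16 in the assembly factors. For the change of the difference they ran from -0.20 in complex III to -0.10 in complex II. In ATP synthase, complex II and complex III every gene had a negative change, against 9554 of 19572 over all genes.

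The genes shared much of their spread between arrays of the same group. The residual SD of a gene around its group means had a median of 0.19 over the 93 genes, against 0.26 over all genes. The first principal component of these residuals held 45.7% of their variance (36.4% over all genes), with 84 of 93 loadings on the same side and the highest in the ATP synthase genes Atp5e, Atp5l and Atp5md and the complex I gene Ndufb2. Across the 16 arrays, which share 4 group means, 88 of 93 genes correlated positively with the mean of the others, with a median r of 0.69 as a description. The counts of loadings and of correlations are not given over all genes. Genes of like signal were not compared, so a sharing particular to the 93 genes is not shown.

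Some arrays thus stood high or low for most of the 93 genes together. Whether genes outside the 93 moved likewise on these arrays was not tested. GFP- replicate 2 after 2-octanone lay 0.21 above its group mean, with 86 of 93 genes above their mean, GFP+ replicate 1 after vehicle lay 0.18 above with 84, and GFP+ replicate 4 after 2-octanone lay 0.16 above with 75. GFP+ replicate 2 after vehicle and GFP- replicate 3 after vehicle were the lowest, at -0.11 and -0.10. Octanone replicate 2 and vehicle replicate 1 are the pools without which the medians of the 2-octanone comparisons moved most towards 0. On the 4 GFP- arrays after 2-octanone the neutrophil genes averaged 14.74, 15.58, 14.37 and 15.90, the macrophage genes 8.33, 9.04, 8.62 and 8.96, and the sustentacular genes 9.73, 10.96, 9.99 and 10.68. Replicate 2 was thus the highest of its group for macrophage and sustentacular genes and second for neutrophil genes. Replicate 4 was the highest for neutrophil genes and second for macrophage and sustentacular genes. It was also the highest for dividing cell, microvillar and erythroid genes, and the lowest for mature and immature neuron genes. Replicate 4 lay at -0.07 from its group mean, with 30 of 93 genes above their mean. The part of these cells in the deviation of either array was not tested.

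**Figure D5:**
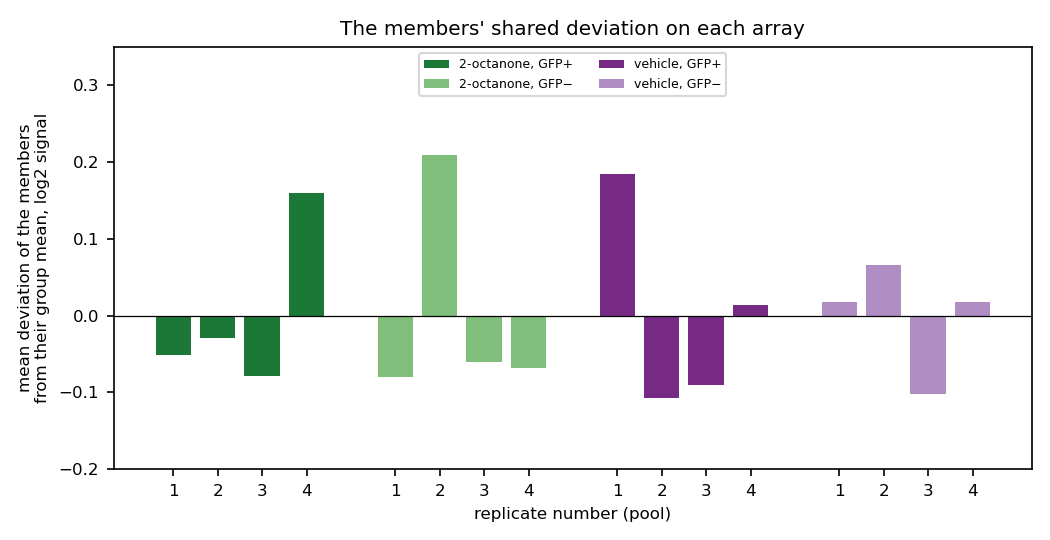
Mean deviation of the 93 genes from their own group means on each of the 16 arrays, in log2 signal, by group and replicate. The arrays that stand highest are GFP+ replicate 4 and GFP- replicate 2 after 2-octanone, and GFP+ replicate 1 after vehicle.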

How the data were processed

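The deposited table gave 28846 probe sets on 16 Clariom S arrays. The deposited values ran from 2.13 to 18.99 and were taken as log2 signals that the authors had normalised, which is what this range fits. Per the submitters' processing notes they were made with Affymetrix Expression Console. The algorithm, the log base and the version are not given in the sources used here. Per the labels, 50 to 100 ng of RNA per fraction was labelled with biotin. Control probe sets and those naming no single gene, 9274 in all, were left out, and 19572 remained. No member had more than 1 probe set.

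The group means of all 16 arrays were fitted with limma 3.58.1 (lmFit and eBayes) in R 4.3.3, with 12 residual and 4.19 prior degrees of freedom and two-sided tests. The fit was first tested on simulated data. Per the labels the GFP+ and GFP- cells of a pool are from the same 3 mice, so a pool pairs its fractions. The fit has no such block, which was an alternative. As a check of the replicate numbers across exposures, residuals of equal number correlated over all genes by 0.19, 0.17, 0.26 and 0.43 in GFP+ cells and by 0.34, -0.06, 0.35 and 0.52 in GFP- cells. Those of unequal number correlated by -0.28 to 0.09 in GFP+ cells and by -0.56 to 0.34 in GFP- cells. The pools are separate samples per the labels, each of 3 mice, so the spread is that between pools.

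Genes were named by a rule: in each class the 2 called members with the largest difference in each direction, all sets of paralogues with tissue isoforms, the 4 members with the smallest p for 2-octanone in each fraction, the 3 for the change of the difference, and 2 per list. The other called members, Sdha to Sdhd, Uqcrc1, Uqcrfs1, Ndufb10 and the assembly factors not called were added after their values were seen. The members and lists were chosen with earlier results of these data known. Alternatives were other scalings, a filter on dim probe sets, the trend and robust options of limma, only the arrays compared, a threshold of 0.1, blocks, and leaving out pools.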

Additional observations from a re-analysis of the deposited data

Results flagged for a closer look

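Of 152 groups of 4 arrays tested, 8 held an array far from the others by Dixon's 95% criterion, and chance gives about 1 in 20. In GFP- cells after 2-octanone, replicate 2 was high for the mean of complex I, at 12.84 against 12.53 to 12.54, and for the mean of ATP synthase, at 14.37 against 14.03 to 14.08. This is the array that stood highest over all 93 genes. In the same group Cox6b2 was low in replicate 1, at 5.64 against 6.34 to 6.44, still above all GFP+ arrays. In GFP- cells after vehicle, Atp5g3 was low in replicate 4, at 14.18 against 14.33 to 14.34. There Cox7b was low in replicate 3, at 13.81 against 14.06 to 14.11, as was Ndufs6, at 12.73 against 12.91 to 12.93. In GFP+ cells after vehicle, Uqcrc2 was low in replicate 1, at 12.40 against 12.51 to 12.53, on an array where 84 of the 93 genes were above their group mean. In that group Ndufa4l2 was high in replicate 4, at 4.28 against 3.43 to 3.56, all under background.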

How the results depend on the processing

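Higher calls in the sort numbered 15 over all arrays, 1 after 2-octanone and 11 after vehicle. With each array centred on its median they numbered 82, 39 and 79, and 77.4%, 48.7% and 57.7% of all genes were called in either direction. At a threshold of 0.1 they were 23 over both and 2 after 2-octanone. Without dim probe sets no gene was lower in any of the 3, since Cox6b2 was not tested. Leaving out each pool in turn gave 8 to 15 over both, 0 to 1 after 2-octanone and 4 to 13 after vehicle. Without both replicate 4 pools they were 8 over both and 0 after 2-octanone, and with only the arrays compared 0 after 2-octanone. For the threshold of 0.1, the pools left out and the fit of only the arrays compared, the share of all genes called is not given. With the pool as a replicate block, which pairs the fractions, the higher calls were 14, 1 and 10, with 1 lower in each. The higher calls were then 15.1%, 1.08% and 10.8% of the 93 genes, against 21.2%, 8.78% and 9.95% of all genes. Lower calls were 1.08% each time, against 14.7%, 10.9% and 12% of all genes. With the replicate number as a block, 0 genes were called in the 2-octanone comparisons, as in every other setting. Of 577 values of named genes under alternatives, 523 kept direction and side of the threshold, 30 fell short of it, 9 passed it and 15 turned: under centring Cox6a2 to 0.03, Cox7a2 to 0.27, Cox7a2l to 0.069, Cox8b to 0.15, Atp5g1 to 0.28 and Atp5g2 to 0.11, and without both replicate 4 pools Atp5g1 to 0.0084. Leaving out each pool, Cox7a2 ran from -0.036 to 0.045, Cox8b from -0.22 to 0.018 and Atp5g1 from -0.069 to 0.093. The cause of these changes was not tested.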
